A study of Homo sapiens with 12 samples.

Results

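Collagen chains and the enzymes that modify them were followed in 12 RNA-sequencing libraries of WM1366, an established human cutaneous melanoma line. The members were the listed genes whose symbol names a collagen chain (COL, a number, A, a number), a lysyl oxidase (LOX, LOXL1 to LOXL4), a lysyl hydroxylase (PLOD1 to PLOD3), a prolyl 4-hydroxylase subunit (P4HA1 to P4HA3, P4HB) or the collagen chaperone SERPINH1. This gave 32 of 12931 listed genes, 21 collagen chains and 11 enzymes or chaperones. The R2 and R1 groups carried the label of a diet with the combined MEK and CDK4/6 inhibitors, and the control group that of a control diet, with 4 libraries in each group. The series describes xenograft tumours that progressed. The sample labels speak of cultured cells instead, and name 0.1 uM palbociclib, a CDK4/6 inhibitor, and 1 nM PD0325901, a MEK inhibitor, for all 12 libraries, those of control among them. What separates R2 from R1 is not given, nor whether the libraries of a group are separate tumours or cultures, so that p-values measure only the spread between these libraries.

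Collagens are proteins of 3 chains wound into a triple helix, most of them secreted and some membrane-bound. Inside the cell, prolyl 4-hydroxylases stabilise the helix, lysyl hydroxylases prepare lysines for cross-links, and SERPINH1 (HSP47) guards the folded molecule. Outside the cell, lysyl oxidases start the cross-links that harden the matrix. Fibrillar collagens form fibres, type IV collagens form the sheet of basement membranes, and type VI collagen forms beaded filaments. Melanoma cells meet and make collagen both in the skin and in metastases.

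Values are normalised read counts, each scaled to the depth of its library, and a difference was called where limma's p, adjusted over all listed genes, was under 0.05. "Rose" and "fell" are used for called differences only. Log2 fold changes are on the log2(value + 0.5) scale, which makes the changes of low genes smaller, while folds are ratios of group means. The depth ran from 20003891 to 39009384 recovered reads per library. Mitochondrial transcripts took 4.02% to 9.63% of the summed value in R2, 2.17% to 3.28% in R1 and 5.86% to 10.9% in control. No libraries of a group agreed within counting noise, as the chi-square per degree of freedom of a pair was at least 11.4. Replicate 2 of R1 stood apart, at 107 to 114 from the other R1 libraries, which were 40.1 to 88.0 from each other. In control, replicates 3 and 4 were 11.4 apart and replicates 1 and 2 were 16.2 apart, but 44.6 to 77.9 lay between these pairs. In R2, replicates 1 and 2 were 37.6 apart and replicates 3 and 4 were 50.7 apart, with 49.7 to 114.9 between these pairs. The values are given library by library, in the order of replicates 1 to 4.

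COL12A1 and COL6A2 had the highest levels per length of all chains in R2 and R1, and were among the 3 highest in control. Per kilobase of exon, COL12A1, a fibril-associated chain, averaged 33.4 in R2, 30.0 in R1 and 34.8 in control, and COL6A2, a chain of type VI collagen, 30.4 in R2, 37.2 in R1 and 22.5 in control. COL1A1, the main chain of type I collagen, averaged 22.0 per kilobase in R2, 10.7 in R1 and 27.6 in control. Together the 21 chains took 0.108% ± 0.0278 of the recovered reads in R2, 0.116% ± 0.0345 in R1 and 0.112% ± 0.00709 in control (SD, n = 4 each). The ranges of this total overlapped between the 3 groups, while single chains differed widely. The fixed genes COL1A2 and COL3A1 were not among the listed genes and so were not analysed here.

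**Figure D1:**
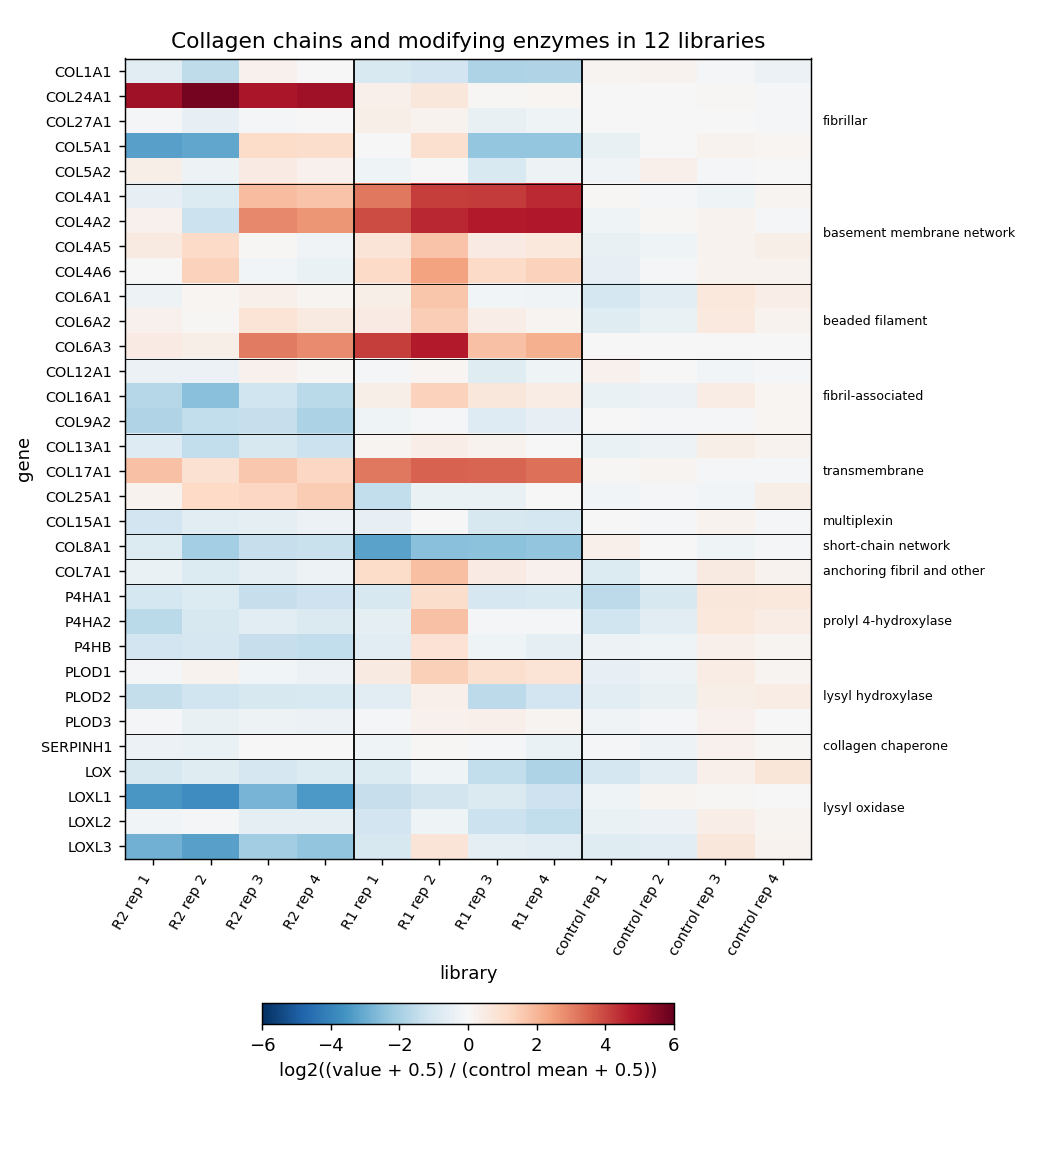
Each row is a member, grouped by role, and each column a library; colour gives log2((value + 0.5) / (control mean + 0.5)). COL4A1, COL4A2 and COL17A1 are high in all 4 R1 libraries, COL24A1 is high in all 4 R2 libraries, and LOXL1 is low in all 4 R2 libraries.

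Against control, 3 members rose and 9 fell in R2, together 37.5% of the 32, beside 28.4% of all listed genes called (13.6% up, 14.8% down). In R1, 9 members rose and 5 fell, 43.8% of them, beside 43.8% of all listed genes (22.4% up, 21.4% down), so the share called in R1 was that of the background. Between the resistant groups, 6 members rose and 14 fell in R2 against R1, 62.5% of the 32, beside 46.8% of all listed genes (22.8% up, 24% down). The median log2 fold change of the members was -0.29 for R2 against control, -0.08 for R1 against control and -0.48 for R2 against R1, with medians over all listed genes of 0.03, 0.01 and -0.00. The comparisons share libraries and are not independent of each other. Being bulk libraries, they cannot tell fewer cells with a message from less message per cell.

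**Figure D2:**
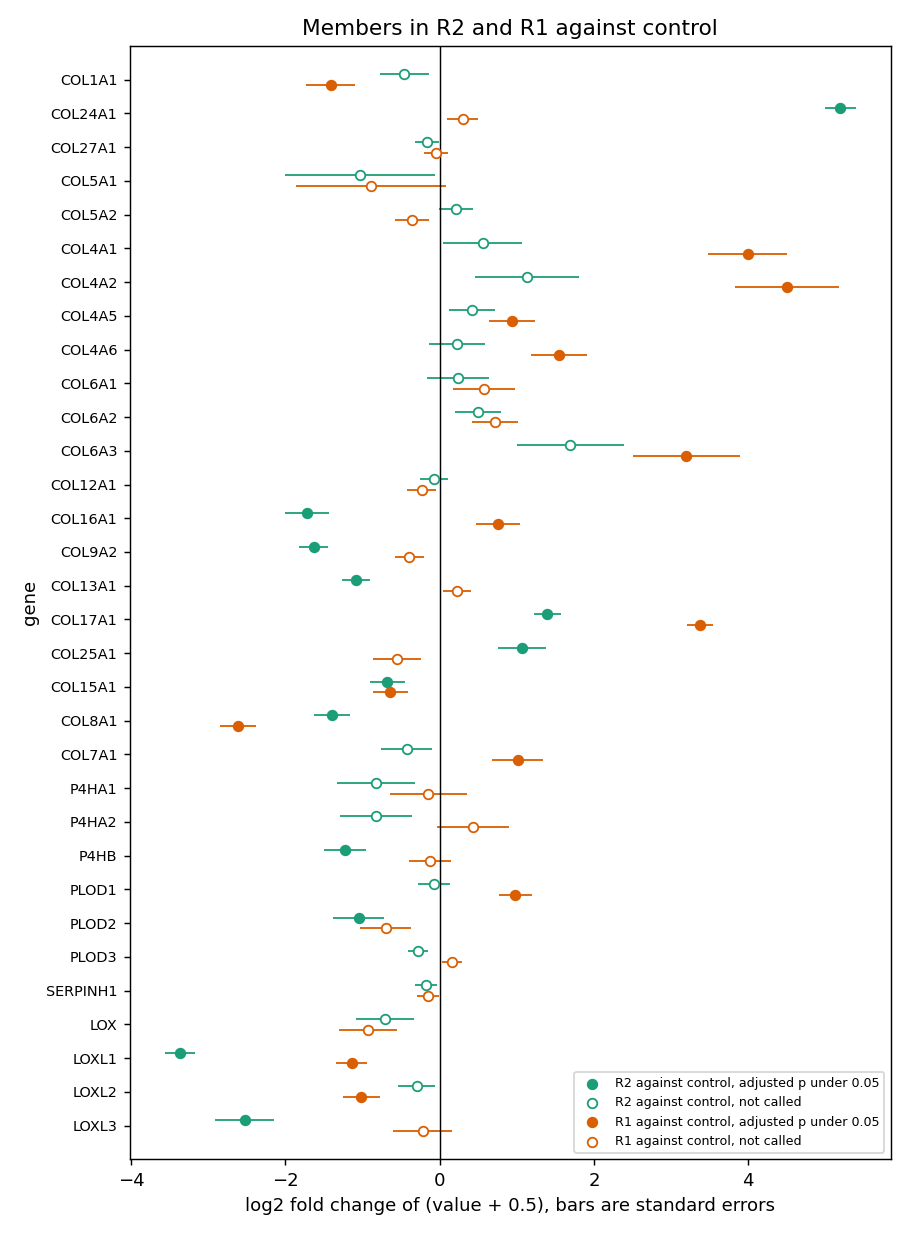
Log2 fold change of each member (horizontal axis, bars are standard errors from limma, 4 libraries per group) in R2 against control (green) and R1 against control (orange); filled points passed the test. The widest bars belong to COL5A1, COL6A3, COL4A2 and COL4A1, whose libraries differed within groups.

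The basement membrane chains were the group most clearly moved in R1. COL4A1 and COL4A2 join as the common type IV molecule of nearly all basement membranes, and COL4A5 and COL4A6 are chains of the rarer networks. All 4 measured type IV chains rose in R1 against control, 0 of 4 passed the test in R2 against control, and 3 of 4 fell in R2 against R1. Of all listed genes, 43.8%, 28.4% and 46.8% were called in these comparisons. COL4A2 stood at 2.97, 0.698, 21.1 and 17.7 in R2, at 42.9, 65.9, 77.7 and 81.6 in R1 and at 1.92, 2.57, 2.92 and 2.26 in control. Every R1 library thus lay above every library of the other groups, while R2 was split, with replicates 3 and 4 well above control and replicate 2 below it. In R1, COL4A2 was 27.7-fold higher than in control (4.50 on the log2 scale, SE 0.67, adjusted p = 0.000111).

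COL4A1 divided R2 in the same way, into low replicates 1 and 2 and higher replicates 3 and 4, at 0.174, 0.0465, 2.93 and 2.62 in R2, at 8.03, 16.4, 17.0 and 20.7 in R1 and at 0.521, 0.428, 0.313 and 0.578 in control. The R1 mean of 15.5 ± 5.36 was 33.8-fold the control mean of 0.460 ± 0.116 (SD, n = 4 each; log2 fold change 3.99, SE 0.51, adjusted p = 2.97e-05). Both chains fell in R2 against R1, with log2 fold changes of -3.43 for COL4A1 (adjusted p = 0.000104) and -3.37 for COL4A2 (adjusted p = 0.00104). R2 against control, COL4A2 did not pass (1.14, adjusted p = 0.228), but it was called on the recovered reads by edgeR (2.14, adjusted p = 0.0323) and DESeq2 (2.11, adjusted p = 0.0264), and by limma without R2 replicate 2 (1.94, adjusted p = 0.00849). COL4A1 did not pass in R2 (0.56, adjusted p = 0.446). Per kilobase of exon, COL4A2 averaged 3.47 in R1 and COL4A1 1.05.

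COL4A1 and COL4A2 lie head to head on chromosome 13, at 110148963 to 110307233 on the minus strand and 110305812 to 110513209 on the plus strand (GRCh38, GENCODE 29). The RefSeq starts (GRCh38.p14) of both genes are 126 bases apart, with the bases between them upstream of both. It is shown because both messages moved together in R1. Capitals mark matches to CCAAT and GGGCGG, searched on both strands. Of 27305 promoters, 21.9% hold CCAAT and 34.6% hold GGGCGG in the 126 bases before the start.
COL4A1-COL4A2 interval, chr13:110307158-110307283, plus strand: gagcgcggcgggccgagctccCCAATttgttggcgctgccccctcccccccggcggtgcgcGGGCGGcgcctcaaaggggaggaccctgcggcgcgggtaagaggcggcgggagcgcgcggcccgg
By the GENCODE coordinates the transcripts of both genes reach past these starts, so the interval lies inside COL4A2 and partly inside COL4A1. Of the 7 other listed genes within 1 Mb of COL4A1, COL4A2 not counted, 3 rose and 1 fell in R1 against control, with a median log2 fold change of 0.13.

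COL4A5 and COL4A6 form the same kind of pair on chromosome X, at 108439844 to 108697545 on the plus strand and 108155607 to 108439497 on the minus strand. Their RefSeq starts lie 379 bases apart. The 250 bases before COL4A5 are shown because these messages also moved together, with capitals for CCAAT on either strand. Over all promoters, 33.0% hold CCAAT in these 250 bases.
COL4A5 upstream, chrX:108439588-108439837, plus strand: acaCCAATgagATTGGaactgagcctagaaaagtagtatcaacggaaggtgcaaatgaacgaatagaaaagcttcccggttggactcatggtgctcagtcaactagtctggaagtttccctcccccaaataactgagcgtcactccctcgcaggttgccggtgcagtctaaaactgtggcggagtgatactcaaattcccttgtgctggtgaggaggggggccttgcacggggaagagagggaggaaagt
COL4A6 stood at 5.00, 14.3, 4.52 and 3.76 in R2, at 12.2, 29.4, 11.9 and 14.1 in R1 and at 3.53, 4.83, 6.10 and 6.15 in control. Replicate 2 was the highest library of both R2 and R1. COL4A6 rose in R1 against control (log2 fold change 1.55, SE 0.36, adjusted p = 0.00322) and fell in R2 against R1 (-1.32, adjusted p = 0.00801), where the R2 and R1 ranges overlapped.
COL4A5 had 13.9, 21.1, 9.83 and 7.99 in R2, 16.3, 31.3, 13.5 and 14.7 in R1 and 6.69, 7.79, 10.8 and 12.03 in control. Its rise in R1 (0.94, SE 0.30, adjusted p = 0.0213) did not hold without R1 replicate 2 (0.67, adjusted p = 0.06) or control replicate 1 or 2 (adjusted p = 0.0655 and 0.0564). R2 against R1, COL4A5 did not pass (-0.52), but with same-numbered libraries paired it was called (adjusted p = 0.021). The order of libraries in COL4A5 and COL4A6 was unlike that in COL4A1 and COL4A2, where R2 replicate 2 was the lowest of its group.

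Of the membrane-bound collagens, COL17A1 was the only member called up in both resistant groups. It codes for a hemidesmosome collagen that anchors epithelial cells to the basement membrane, and lies on chromosome 10, 104031286 to 104085957. Its values were 9.16, 4.89, 8.33 and 6.29 in R2, 25.3, 32.1, 31.1 and 27.6 in R1 and 2.44, 2.65, 2.14 and 2.15 in control. The 3 groups did not overlap, with R1 highest and control lowest. COL17A1 was 3.06-fold higher in R2 than in control (1.40 on the log2 scale, SE 0.17, adjusted p = 3.68e-05) and 12.4-fold higher in R1 (3.37, SE 0.17, adjusted p = 3.83e-09). R2 was also below R1 (-1.98, SE 0.17, adjusted p = 9.94e-07). Of 13 listed neighbours within 1 Mb, 3 rose and 1 fell in R2, and 6 rose and 3 fell in R1.

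COL13A1, a transmembrane collagen of cell adhesion sites, went the other way in R2, at 36.7, 22.6, 31.9 and 25.4 in R2, 70.0, 84.0, 72.6 and 62.9 in R1 and 48.2, 50.7, 79.2 and 73.8 in control. All R2 libraries lay below all others, and the fall was called against control (-1.09, SE 0.18, adjusted p = 0.000464) and against R1 (-1.31, adjusted p = 5.46e-05). COL25A1, a transmembrane collagen known from amyloid plaques, had 2.73, 5.96, 6.15 and 7.48 in R2, 0.510, 1.58, 1.59 and 2.29 in R1 and 1.96, 2.14, 1.98 and 3.05 in control. It rose in R2 against control (1.07, adjusted p = 0.0192) and against R1 (1.62, adjusted p = 0.000748), where R2 replicate 1 overlapped control. The call against control was lost without R2 replicate 3 or 4 or control replicate 3 (adjusted p = 0.0509, 0.0628 and 0.0518).

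COL24A1 was the member most changed in R2. It codes for a fibrillar chain known mainly from developing bone and cornea, and lies on chromosome 1, 85729233 to 86156943. Its values were 18.9, 30.7, 16.7 and 18.9 in R2, 0.218, 0.439, 0.114 and 0.124 in R1 and 0.0801, 0.0779, 0.104 and 0.0525 in control. The message was near the limit of detection outside R2, with 26 recovered reads over the 4 R1 libraries and 7 over the 4 control libraries, against 2256 in R2. COL24A1 was 271-fold higher in R2 than in control by the ratio of means (5.20 on the log2 scale, SE 0.20, adjusted p = 2.75e-10) and 95.2-fold higher than in R1 (4.89, SE 0.20, adjusted p = 3.44e-10). Of the 12 listed genes within 1 Mb, 1 rose and 1 fell in R2 against control, with a median log2 fold change of -0.01.

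**Figure D3:**
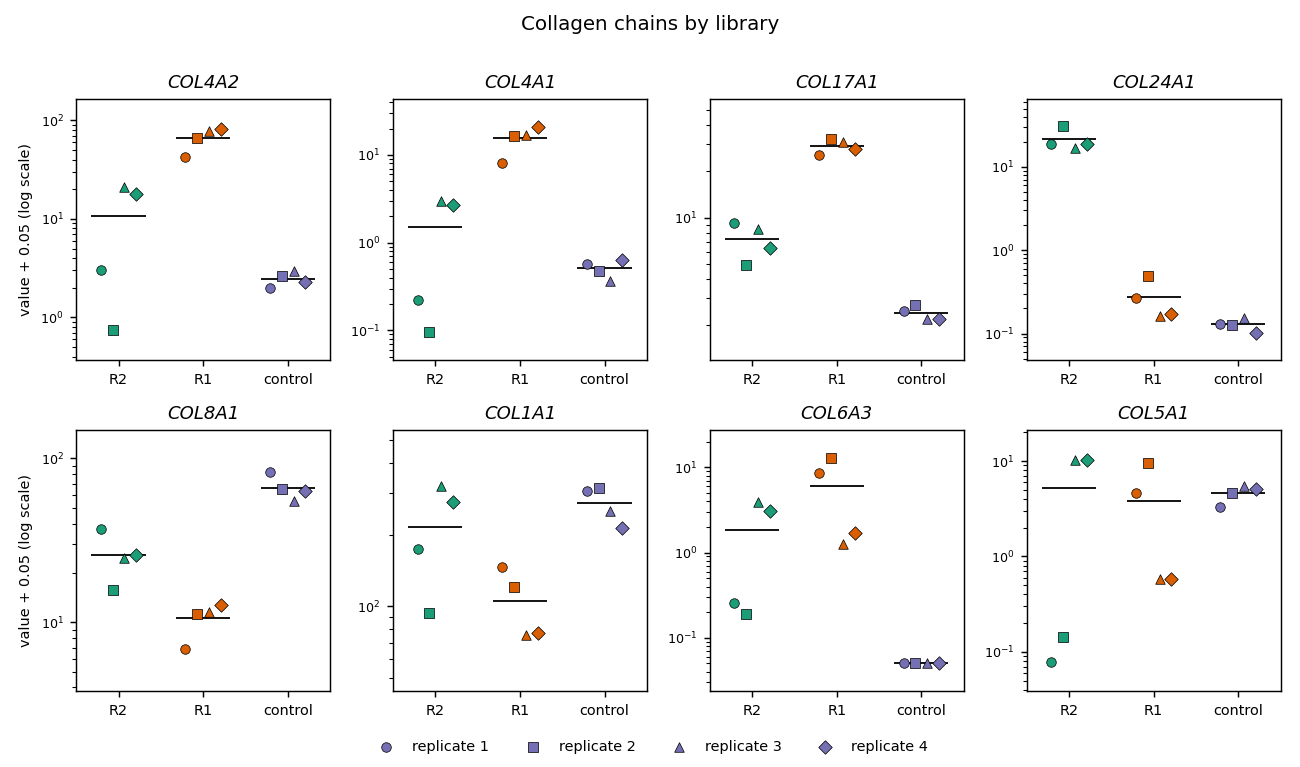
Values of 8 collagen chains in every library (vertical log axis, value + 0.05), by group from R2 to R1 to control; symbols mark the replicate and lines the group mean. COL24A1 is at 16.7 to 30.7 in R2 and under 0.5 elsewhere, and COL5A1 differs from 0.0291 to 10.3 within R2.

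COL1A1 was at 174, 94.1, 320 and 276 in R2, at 146, 121, 75.5 and 76.8 in R1 and at 305, 315, 251 and 214 in control. All R1 libraries lay below all control libraries, while R2 spanned both. COL1A1 fell in R1 to 105 ± 34.5, against 271 ± 47.2 in control (SD, n = 4 each). This was a log2 fold change of -1.41 (SE 0.32, adjusted p = 0.00268). Its share of the collagen reads was 11.6% to 23.5% in R2, 7.86% to 12.9% in R1 and 19.5% to 27.9% in control. R2 against control did not pass (-0.46, adjusted p = 0.311). R2 was higher than R1 (0.95, adjusted p = 0.0245), a call lost when R1 replicate 3 or 4 or R2 replicate 3 or 4 was left out (adjusted p = 0.0757, 0.0713, 0.0816 and 0.0782), with those groups fitted alone, and with same-numbered R2 and R1 libraries paired (adjusted p = 0.0846).

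COL5A1, the chain of type V collagen that starts type I fibrils and limits their width, showed the widest spread within groups. It stood at 0.0291, 0.0931, 10.3 and 10.1 in R2, at 4.54, 9.43, 0.532 and 0.525 in R1 and at 3.29, 4.56, 5.42 and 5.04 in control. In R2 replicates 1 and 2 were nearly without the message and replicates 3 and 4 were above every control library, whereas in R1 replicates 3 and 4 were the low ones. No comparison passed the test (log2 fold changes -1.03 for R2 against control, -0.89 for R1 against control and -0.14 for R2 against R1, adjusted p = 0.464, 0.48 and 0.92). The group means of 5.13 in R2, 3.76 in R1 and 4.58 in control hide this division. The labels give nothing that sets these libraries of a group apart.

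Its partner chain COL5A2 ranged from 2.65 to 5.05 in R2, 1.59 to 3.47 in R1 and 2.89 to 4.36 in control and showed no such division. COL5A2 was higher in R2 than in R1 (0.58, adjusted p = 0.0441), a call lost in 12 of 21 alternatives, with adjusted p up to 0.138 (without R1 replicate 3). With same-numbered R2 and R1 libraries paired, it was not called (adjusted p = 0.12). COL27A1, a fibrillar chain of cartilage, ranged from 66.6 to 95.8 in R2, 68.6 to 119 in R1 and 89.2 to 96.5 in control and passed no test. Of the 5 measured fibrillar chains, then, 1 rose in R2 against control, 1 fell in R1 against control, and 3 rose in R2 against R1. The shares called were 20%, 20% and 60%, beside 28.4%, 43.8% and 46.8% of all listed genes.

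In type VI collagen, which links cells to the matrix around them, COL6A3 divided the libraries like COL5A1 did. It was at 0.204, 0.140, 3.84 and 3.03 in R2, at 8.44, 12.9, 1.21 and 1.67 in R1, and no read was found in any control library. Every R1 and R2 library had the message, and within R2 replicates 3 and 4, within R1 replicates 1 and 2, were the high ones. Set against 3 reads over the 4 control libraries, the group mean of COL6A3 was at least 52.4-fold higher in R2 and at least 176-fold higher in R1. These bounds came to 32.6-fold without R2 replicate 3 and 109.7-fold without R1 replicate 2. The R2 bound rested on replicates 3 and 4, with 123 and 66 recovered reads, beside 7 and 3 in replicates 1 and 2. It is a bound on the mean and does not hold for each R2 library. COL6A3 rose in R1 (log2 fold change 3.20, SE 0.69, adjusted p = 0.0019). In R2 it did not pass (1.70, SE 0.69, adjusted p = 0.0807), but it was called by edgeR (adjusted p = 0.0194) and DESeq2 (adjusted p = 2.56e-05) on the recovered reads, and in 7 of 20 alternatives in all.

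COL6A2 had 144, 126, 211 and 173 in R2, 172, 337, 158 and 135 in R1 and 72.7, 91.6, 181 and 139 in control. COL6A1 had 43.3, 57.7, 65.4 and 59.6 in R2, 67.1, 171, 47.7 and 45.3 in R1 and 25.1, 33.9, 83.7 and 69.4 in control. In both genes R1 replicate 2 was the highest library of all, and the groups overlapped. Neither passed a test (for R1 against control, 0.72 with adjusted p = 0.0638 in COL6A2 and 0.58 with adjusted p = 0.267 in COL6A1). The 2 chains lie in tandem on chromosome 21, at 45981737 to 46005050 (COL6A1) and 46098097 to 46132849 (COL6A2). COL6A3 lies on chromosome 2, 237324003 to 237414375. Of its 9 listed neighbours within 1 Mb, 5 rose and 0 fell in R1 against control, with a median log2 fold change of 0.60. In R2 against control 1 rose and 1 fell (median 0.30). The part of the region in the values of COL6A3 was not tested.

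COL8A1, a short-chain network collagen of vessel walls and the cornea, fell in both resistant groups. It stood at 37.0, 15.7, 24.8 and 25.7 in R2, at 6.82, 11.2, 11.5 and 12.6 in R1 and at 82.1, 64.8, 55.2 and 62.8 in control. The 3 groups did not overlap, in the reverse order of COL17A1. The mean was 25.8 ± 8.73 in R2 and 10.5 ± 2.55 in R1, against 66.2 ± 11.4 in control, with log2 fold changes of -1.39 (SE 0.23, adjusted p = 0.000469) and -2.61 (SE 0.23, adjusted p = 1.03e-06). R2 was 2.45-fold higher than R1 (1.22, adjusted p = 0.000707). COL8A1 lies on chromosome 3, 99638475 to 99799226. Of 11 listed neighbours within 1 Mb, 1 rose and 1 fell in R2 against control, and 1 rose and 3 fell in R1.

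COL16A1, a fibril-associated chain, was the only member called in opposite directions against control. Its values were 1.95, 0.931, 3.03 and 2.11 in R2, 9.90, 20.3, 12.2 and 10.6 in R1 and 5.69, 5.80, 10.5 and 8.25 in control. It fell in R2 (-1.72, SE 0.28, adjusted p = 0.000442), rose in R1 (0.76, SE 0.28, adjusted p = 0.0436) and was lower in R2 than in R1 (-2.47, SE 0.28, adjusted p = 1.19e-05). All R2 libraries lay below all control libraries. R1 overlapped control, and its rise was lost in 9 of 21 alternatives, among them leaving out R1 replicate 2 (0.54, adjusted p = 0.124). It also ended without R1 replicate 3, each of R2 replicates 1 and 4 and each of control replicates 1, 2 and 4 (adjusted p = 0.0517 to 0.115).

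COL9A2, a chain of the cartilage collagen type IX, was low throughout, at 0.0459 to 0.281 in R2, 0.683 to 1.45 in R1 and 1.44 to 1.68 in control, and fell in R2 (-1.63, SE 0.19, adjusted p = 2.01e-05). COL7A1, the anchoring fibril collagen of skin, had 1.21 to 2.02 in R2, 3.21 to 10.3 in R1 and 1.24 to 3.96 in control. It rose in R1 (1.01, adjusted p = 0.0214) and fell in R2 against R1 (-1.44, adjusted p = 0.00256). The rise rested on R1 replicates 1 and 2 and control replicates 1 and 2, each of which, left out, ended the call (adjusted p = 0.0515, 0.0595, 0.0731 and 0.055). COL15A1, a multiplexin of basement membrane zones, was at 2.09 to 4.04 in R2, 2.22 to 5.13 in R1 and 4.79 to 6.10 in control. It fell in R2 (-0.68, adjusted p = 0.0386) and R1 (-0.64, adjusted p = 0.0352), but 9 and 8 of 20 alternatives did not call it. COL12A1 had 340 to 523 in R2, 260 to 468 in R1 and 383 to 523 in control and passed no test.

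Among the 11 enzymes and chaperones, 0 rose and 4 fell in R2 against control, 36.4% beside 28.4% of all listed genes. In R1 against control 1 rose and 2 fell, 27.3% beside 43.8%, and in R2 against R1 1 rose and 6 fell, 63.6% beside 46.8%. The median log2 fold changes were -0.82, -0.15 and -0.68. These 11 genes took 0.112% ± 0.00619 of the recovered reads in R2, 0.181% ± 0.0887 in R1 and 0.190% ± 0.0432 in control (SD, n = 4 each). The R1 spread came from replicate 2, at 0.314%, beside 0.134% to 0.141% in the other R1 libraries, and control divided into 0.149% and 0.157% in replicates 1 and 2 and 0.231% and 0.224% in replicates 3 and 4.

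P4HB, protein disulphide isomerase and the shared beta subunit of prolyl 4-hydroxylase, had the highest level per kilobase of all members in each group. It stood at 302, 341, 258 and 243 in R2, at 428, 1248, 558 and 462 in R1 and at 555, 556, 836 and 754 in control. All R2 libraries were below all others. P4HB fell in R2 to 286 ± 44.4, against 675 ± 143 in control (-1.23, SE 0.27, adjusted p = 0.00383), and was lower in R2 than in R1 (-1.10, adjusted p = 0.00436). R1 against control did not pass (-0.12, adjusted p = 0.733), although without R1 replicate 2 a fall was called (-0.47, adjusted p = 0.0347). Of 42 listed neighbours of P4HB within 1 Mb on chromosome 17, 5 rose and 2 fell in R2 against control. Of all listed genes, 13.6% rose and 14.8% fell.

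The catalytic alpha subunits P4HA1 and P4HA2, oxygen-dependent enzymes whose genes are known hypoxia targets, followed R1 replicate 2 and control replicates 3 and 4 more than the groups. P4HA1 was at 21.9, 26.1, 17.6 and 19.3 in R2, at 24.0, 95.5, 23.0 and 24.6 in R1 and at 15.5, 23.3, 74.1 and 72.6 in control. P4HA2 was at 7.996, 12.6, 15.9 and 13.6 in R2, at 17.1, 85.2, 22.9 and 23.0 in R1 and at 10.5, 15.7, 39.6 and 34.9 in control. In both genes 1 library of R1 and 2 of control stood far above the rest of their group, while no R2 library did. P4HA1 passed no test (R2 against control -0.82, adjusted p = 0.24). P4HA2 was lower in R2 than in R1 (-1.25, adjusted p = 0.0402), a call lost in 5 of 22 alternatives, when R1 replicate 2 (-0.75, adjusted p = 0.112) or 3 or R2 replicate 1, 2 or 4 was left out.

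PLOD2, the lysyl hydroxylase of the collagen ends, where the stiffer cross-links form, and also a known hypoxia target, had 189, 220, 255 and 264 in R2, 315, 614, 171 and 224 in R1 and 314, 372, 634 and 698 in control. It fell in R2 (-1.05, SE 0.33, adjusted p = 0.0301), with all R2 libraries below all control libraries, but the call needed each of R2 replicates 1 and 2 and control replicates 3 and 4 (adjusted p without them 0.0774, 0.056, 0.0892 and 0.0941). In R1 it was called only when replicate 2 was left out (-1.05, adjusted p = 0.00546, against -0.70 and adjusted p = 0.104 with it). The same libraries were high in NDRG1 and CA9, hypoxia-induced genes chosen after the values were seen. NDRG1 was at 33.9, 69.5, 28.3 and 26.9 in R2, 50.1, 1540.4, 64.2 and 54.6 in R1 and 11.4, 32.01, 744 and 499 in control. CA9, a carbonic anhydrase, was at 1.95, 7.35, 1.06 and 0.780 in R2, 10.5, 127, 20.7 and 13.3 in R1 and 0.601, 5.88, 82.9 and 63.5 in control. The part of oxygen supply in these values was not tested.

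The upstream bases of P4HA1, P4HA2 and PLOD2 are shown because these messages were high in the same libraries (RefSeq, GRCh38.p14, 250 bases before the start, on the gene's strand). Capitals mark ACGTG or GCGTG on either strand, the core letters bound by hypoxia-inducible factors. Over 27305 promoters, 43.1% hold at least 1 match in this window.
P4HA1, chr10:73096867-73097116, minus strand: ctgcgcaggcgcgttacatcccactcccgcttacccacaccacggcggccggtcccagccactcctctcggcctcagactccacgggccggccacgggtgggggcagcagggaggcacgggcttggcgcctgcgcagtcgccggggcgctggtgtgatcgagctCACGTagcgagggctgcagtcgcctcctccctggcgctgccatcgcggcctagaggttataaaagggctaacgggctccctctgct
P4HA2, chr5:132227092-132227341, minus strand: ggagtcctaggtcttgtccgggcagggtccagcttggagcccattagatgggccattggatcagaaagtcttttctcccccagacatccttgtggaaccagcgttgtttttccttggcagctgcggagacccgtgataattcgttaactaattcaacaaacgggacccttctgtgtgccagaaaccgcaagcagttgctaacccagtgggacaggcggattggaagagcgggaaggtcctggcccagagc
PLOD2, chr3:146161185-146161434, minus strand: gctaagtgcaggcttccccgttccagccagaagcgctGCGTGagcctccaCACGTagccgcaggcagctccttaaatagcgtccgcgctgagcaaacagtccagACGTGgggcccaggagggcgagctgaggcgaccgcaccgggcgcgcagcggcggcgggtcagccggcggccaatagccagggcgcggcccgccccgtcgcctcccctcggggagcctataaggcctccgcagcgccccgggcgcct
The P4HA1 window held 1 match and the PLOD2 window 3, while these letters are not in the P4HA2 window. For all 3 genes GENCODE places the outermost start further upstream than RefSeq does, inside the window for P4HA1 and beyond it for P4HA2 and PLOD2.

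PLOD1, the lysyl hydroxylase of the helix, was the only enzyme to rise in R1, at 195, 361, 265 and 235 in R1 against 96.3, 108, 185 and 149 in control, 1.96-fold higher by the means (0.98 on the log2 scale, SE 0.21, adjusted p = 0.00197). In R2 it had 122, 154, 119 and 104, below every R1 library (R2 against R1 -1.06, adjusted p = 0.0011). PLOD3, which also adds the sugars of hydroxylysine, ranged from 40.1 to 51.6 in R2, 50.9 to 68.3 in R1 and 47.5 to 67.0 in control and fell in R2 against R1 only (-0.44, adjusted p = 0.0118). SERPINH1 passed no test, with 128, 125, 167 and 160 in R2, 138, 172, 153 and 125 in R1 and 155, 132, 196 and 175 in control. Its log2 fold changes were -0.17 in R2 and -0.15 in R1 against control, with an SE of 0.14 each.

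Of the 4 measured lysyl oxidases, LOXL1 and LOXL3 fell in R2 and LOXL1 and LOXL2 in R1. LOXL1, which cross-links elastin and collagen, had 1.40, 1.12, 2.65 and 1.47 in R2, 7.69, 9.74, 11.5 and 8.59 in R1 and 17.4, 23.4, 22.2 and 21.6 in control. The 3 groups did not overlap. Control was 12.8-fold above R2 (log2 fold change of R2 against control -3.37, SE 0.20, adjusted p = 1.92e-08) and 2.26-fold above R1 (log2 fold change of R1 against control -1.14, SE 0.20, adjusted p = 0.00035), and R2 was below R1 (-2.23, SE 0.20, adjusted p = 1.02e-06). LOXL1 lies on chromosome 15, 73925989 to 73952137. Of the 19 listed genes within 1 Mb of it, LOXL1-AS1 not counted, 16 fell and 1 rose in R2 against control, with a median log2 fold change of -0.85, and 6 fell and 7 rose in R1. The fall of LOXL1 in R2 thus went along with falls of its neighbours, and the part of the region in it was not tested. Its exons overlap those of LOXL1-AS1, an antisense gene at 4.56, 2.65, 5.15 and 6.52 in R2, 12.8, 15.7, 12.9 and 12.1 in R1 and 14.6, 18.7, 15.996 and 15.0 in control, and the library kit does not mark strand, so that reads of the overlap cannot be told apart.

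LOXL3 was at 3.98, 2.93, 7.33 and 5.78 in R2, 16.6, 54.7, 22.1 and 20.4 in R1 and 19.5, 20.1, 52.1 and 37.6 in control. Here again R1 replicate 2 and control replicates 3 and 4 were high. All R2 libraries were below all others, and LOXL3 fell against control (-2.52, SE 0.38, adjusted p = 0.000209) and against R1 (-2.30, SE 0.38, adjusted p = 0.000249). The exons of LOXL3 overlap those of HTRA2 and DOK1. Those of LOX overlap SRFBP1, those of LOXL2 overlap ENTPD4 and those of PLOD3 overlap ZNHIT1. Reads of these overlaps cannot be told apart either.

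LOXL2, the most abundant lysyl oxidase and known from invasive tumours, had 268, 286, 211 and 206 in R2, 135, 251, 123 and 108 in R1 and 232, 239, 397 and 345 in control. It fell in R1 (-1.02, SE 0.24, adjusted p = 0.00345) with R1 replicate 2 inside the control range. R2 against control did not pass (-0.30, adjusted p = 0.383), and the difference of R2 from R1 (0.72, adjusted p = 0.0237) was lost in 5 of 22 alternatives, when R1 replicate 1, 3 or 4 or R2 replicate 1 or 2 was left out (adjusted p = 0.0526 to 0.0773). LOX itself was low, with 1.77, 2.19, 1.75 and 2.07 in R2, 2.06, 3.29, 1.10 and 0.741 in R1 and 1.64, 2.38, 5.05 and 6.78 in control. It did not pass in R2 (-0.71, adjusted p = 0.177) or R1 (-0.92, adjusted p = 0.0599), and was called down in R1 by DESeq2 (adjusted p = 0.028) and without R1 replicate 2 (-1.21, adjusted p = 0.0145) or control replicate 1 (adjusted p = 0.0167).

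R1 replicate 2 was above the other R1 libraries in 24 of 32 members (15 of 21 chains and 9 of 11 enzymes) and below them in none, while over all listed genes it was above them in 33.4% and below them in 4138 of 12931. The median ratio of replicate 2 to the mean of the others was 1.53 for the chains and 2.53 for the enzymes, and 0.998 over all listed genes. Without this library, 6 members rose and 9 fell in R1 against control, against 9 and 5 with it. COL16A1, COL4A5 and COL7A1 were no longer called up, and COL9A2 (-0.50, adjusted p = 0.0421), LOX, P4HB and PLOD2 were called down. Of the larger R1 changes, those of COL4A1, COL4A2, COL4A6, COL6A3, COL17A1, COL8A1, COL1A1, LOXL1, LOXL2 and PLOD1 were called with and without it.

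Of 35 other measured genes of collagen maturation, binding and turnover, 4 rose and 11 fell in R2 against control, together 42.9% beside 28.4% of all listed genes. In R1 against control 6 rose and 5 fell, 31.4% beside 43.8%, and in R2 against R1 5 rose and 12 fell, 48.6% beside 46.8%. The medians were -0.14, -0.06 and -0.27 on the log2 scale. P3H2, a prolyl 3-hydroxylase of type IV collagen, fell in both groups, at 10.1 ± 2.67 in R2 and 16.4 ± 4.07 in R1, against 47.0 ± 1.96 in control (-2.20, adjusted p = 1.53e-06, and -1.53, adjusted p = 2.65e-05). TGFBI, a matrix protein that binds collagens, rose in both, at 163 ± 81.5 in R2 and 193 ± 43.4 in R1, against 46.4 ± 26.2 in control (1.79, adjusted p = 0.00616, and 2.20, adjusted p = 0.000915).
PCOLCE2, which helps to trim procollagen ends, was at 0.640, 2.05, 7.71 and 7.25 in R2, 21.0, 42.7, 20.7 and 17.0 in R1 and 14.4, 15.3, 18.7 and 18.2 in control. It fell in R2 against control (-2.21, adjusted p = 0.00414) and against R1 (-2.72, adjusted p = 0.000517), with R2 replicates 1 and 2 lowest, as they were in COL5A1 and COL6A3. MMP1, the collagenase of fibrillar collagens, was at 41.3, 17.2, 139 and 129 in R2, 64.5, 445, 482 and 470 in R1 and 33.9, 26.8, 39.7 and 42.2 in control. It rose in R1 (2.999, SE 0.66, adjusted p = 0.0023) and was lower in R2 than in R1 (-2.24, adjusted p = 0.0131), and in R2 it had the same division of libraries as COL4A1 and COL4A2.
COLGALT2, which adds galactose to hydroxylysine, rose in R2 (1.43, adjusted p = 3.51e-05) and in R1 (0.83, adjusted p = 0.0018), and was higher in R2 than in R1 (0.61, adjusted p = 0.0119). FKBP14, a collagen-folding isomerase, was higher in R2 than in R1 as well (0.83, adjusted p = 0.000218). MMP2, a gelatinase, fell in R1 (-1.06, adjusted p = 0.0288).

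Markers of other cell types that make collagen were read in the same libraries, since host cells can be part of a xenograft; whether mouse reads are among the counts was not tested. Of 12 fibroblast and pericyte markers 7 were measured, with summed values of 530 to 664 in R2, 542 to 659 in R1 and 435 to 531 in control. Most of this sum was THY1, at 553 ± 71.9 in R2, 491 ± 52.0 in R1 and 420 ± 34.5 in control, while LUM was at 2.02 ± 0.341 in R2, 5.96 ± 3.28 in R1 and 6.66 ± 2.29 in control, and PDGFRB at 0.331 ± 0.167 in R2, 5.05 ± 2.84 in R1 and 4.03 ± 2.02 in control. In R1 against control, 2 of the 7 rose and 0 fell, 28.6% beside 43.8% of all listed genes. CSPG4, a pericyte proteoglycan that melanoma cells also make, had 8.11, 5.73, 21.1 and 18.2 in R2, 52.0, 90.9, 101 and 104 in R1 and 21.8, 19.9, 37.8 and 29.5 in control (R1 against control 1.65, adjusted p = 0.00191; R2 against control -1.15, adjusted p = 0.027). FAP was at 0.452 ± 0.344 in R2, 2.03 ± 1.14 in R1 and 0.475 ± 0.177 in control (R1 against control 1.30, adjusted p = 0.00272). CSPG4 and FAP rose in R1 against control, as COL4A1 and COL4A2 did, while the other 5 measured markers were not called. Among these were LUM (-0.21, adjusted p = 0.583) and PDGFRB (0.30, adjusted p = 0.541). Within R1, CSPG4 was lowest in replicate 1 and highest in replicate 4, as were COL4A1 and COL4A2. FAP had another order, highest in replicate 2 and lowest in replicate 4. The part of the cells marked by CSPG4 and FAP in the rise of COL4A1 and COL4A2 was not tested.
Of 12 endothelial markers 6 were measured, with summed values of 168 to 245 in R2, 492 to 654 in R1 and 215 to 260 in control. TIE1 made up most of it, at 135 ± 13.96 in R2, 394 ± 54.6 in R1 and 139 ± 14.6 in control, VWF was at 0.937 ± 0.258 in R2, 4.49 ± 1.27 in R1 and 1.76 ± 0.686 in control, and PECAM1 at 0.697 ± 0.213 in R2, 2.55 ± 1.61 in R1 and 2.26 ± 1.33 in control. EGFL7 had no read in 3 of 4 R2 libraries, and averaged 16.2 ± 3.32 in R1 and 3.61 ± 1.04 in control. In R1 against control, 4 of the 6 rose and 0 fell, 66.7% beside 43.8% of all listed genes. In R2 against control 0 rose and 2 fell, 33.3% beside 28.4%, and in R2 against R1 all 6 fell, 100% beside 46.8%. The endothelial sum, most of it TIE1, was higher in R1, where COL4A1 and COL4A2 also rose. Which cells made the TIE1 message was not tested, nor the part of endothelium in the rise of COL4A1 and COL4A2. Within R1, replicate 1 was the lowest in both COL4A1 and the endothelial sum, but the highest endothelial sum was in replicate 2 and the highest COL4A1 in replicate 4. Melanoma markers were measured for 3 of 10 genes, MITF, PMEL and PAX3, with sums of 47.8 to 50.5 in R2, 57.5 to 77.5 in R1 and 58.4 to 74.7 in control. Its members went opposite ways. PMEL, a melanosome protein, rose in R2 (0.66, adjusted p = 0.0283) and R1 (2.24, adjusted p = 1.48e-06), while MITF, the melanocyte master regulator, fell in R2 (-0.70, adjusted p = 0.00928) and R1 (-1.11, adjusted p = 0.000217). Of 8 leukocyte markers 1 was measured, CSF1R, at 0.349 to 0.688 in R2, 1.39 to 6.19 in R1 and 1.12 to 3.18 in control.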

How the data were processed

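Processed signal files of 12 RNA-sequencing libraries were used. Per the labels, TruSeq RNA kit v2 was used, a kit that does not mark strand. STAR, edgeR and the build GRCh38 are named, without versions, in the submitters' processing notes; the annotation and the filter on genes are not given in the sources used here. The deposited signal values were scaled per library by the authors. Dividing by the value of 1 read gave whole reads for 100% of values in each library (tolerance 0.001). The sum of the deposited values was 0.9985 of that of the recovered reads scaled by TMM, to 4 decimals, in every library. On the recovered reads edgeR called 1725 genes up and 1839 down for R2 against control, 2964 and 2681 for R1 against control, and 2886 and 3102 for R2 against R1.

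All 12931 rows (12929 symbols) entered 1 fit of 3 group means on log2(value + 0.5) with limma 3.58.1 (trended empirical Bayes, R 4.3.3), two-sided, Benjamini-Hochberg adjusted. Alternatives used edgeR 4.0.16 and DESeq2 1.42.0, other pseudocounts, a filter, a replicate block and leaving out each library. The fit was also run on simulated counts of independent libraries. That run cannot vouch for data in which libraries of a group resemble each other in pairs. Same-numbered R2 and R1 libraries deviated together weakly (r = 0.115 to 0.205 in 4 of 4 pairs), a pairing read from the data and not from the labels. R1 replicate 3 and R2 replicate 1, which differ in number, also had r = 0.152. R2 against R1 was therefore also fitted alone with the replicate number as a block, an alternative chosen after seeing the data. Same-numbered R1 and control (r = -0.359 to 0.430) and R2 and control libraries (-0.228 to 0.0781) did not deviate together throughout. Neighbour counts leave out members and genes whose exons overlap the member. They stand beside 13.6% of all listed genes risen and 14.8% fallen in R2 against control, and 22.4% and 21.4% in R1 against control. A gene without reads in a group was given a bound of 3 reads over the group, which covers counting error only; 3 reads in 1 library correspond to a value of 0.0728 to 0.158. Coordinates and exon lengths come from GENCODE 29, and 27 of 32 members had a RefSeq promoter entry. Members, lists and rules were chosen with earlier results of these data known. Named genes were, per comparison, up to 5 called rises and 5 called falls whose higher group averaged 5 or more, members called in opposite directions, and 16 fixed genes. The other members are given by their ranges, or were chosen after their values were seen.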

Additional observations from a re-analysis of the deposited data

Results flagged for a closer look

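In 9 of 95 sets of 4 libraries, 1 library lay far outside the range of the other 3. The cut flags about 1 in 20 sets of independent, normally distributed values. These values were not log-transformed and the sets share libraries, so no excess over chance can be read from the count. Of the 9 flagged values, 6 were the highest value of R1 and belonged to replicate 2. They were P4HA1 at 95.5 (others 23.0 to 24.6), P4HA2 at 85.2 (17.1 to 23.0), P4HB at 1248 (428 to 558), LOXL3 at 54.7 (16.6 to 22.1), COL4A5 at 31.3 (13.5 to 16.3) and COL4A6 at 29.4 (11.9 to 14.1). In R2, replicate 2 was the highest in COL24A1 at 30.7 (others 16.7 to 18.9) and in COL4A6 at 14.3 (3.76 to 5.00). In control, replicate 4 was the highest in COL25A1 at 3.05 (1.96 to 2.14).

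COL16A1 was flagged because it fell in R2 and rose in R1 against the same control libraries, and the difference of R2 from R1 was called (log2 fold change -2.47).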

How the results depend on the processing

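Of 46 called member differences, 35 were called in every alternative that gave a value (20 to 22 each), 11 were lost in at least 1 and none changed sign. These alternatives were not all separate checks. The TMM scaling is nearly that of the deposited values, and it gave the same counts as the main fit. Leaving out a library of the group not compared changed only the estimate of spread, so no sign could change there. Of 50 not called, 10 were called in at least 1. Members risen in R2 against control numbered 3, and 5 by edgeR and by DESeq2 (COL4A2 and COL6A3 added), and 2 to 5 when a library was left out. Fallen in R2 were 9 (7 to 9), risen in R1 9 (6 to 10), fallen in R1 5 (4 to 9, with 9 without R1 replicate 2), risen in R2 against R1 6 (3 to 6, with 3 without R1 replicate 3 or 4) and fallen there 14 (13 to 15). The filter at a mean of 5 leaves out low members, so its counts are lower by construction.

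Of 24 best matches in another group, 9 had the same replicate number. In R2 and R1 alone, paired by number with the replicate block, 4 members rose and 15 fell, the calls of COL1A1 and COL5A2 were lost, that of COL4A5 was gained, and no other call changed. In the fit of all groups with the replicate block, where control did not pair, 3 members rose and 8 fell in R2 against control, 8 and 5 in R1 against control and 5 and 14 in R2 against R1.

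COL5A1, which was never called, changed sign for R2 against control by edgeR (0.17) and DESeq2 (0.14), and for R2 against R1 with a pseudocount of 1 (0.0163) or 5 (0.12), by edgeR (0.46) and by DESeq2 (0.45). The cause was not tested. When libraries were left out, other differences that were not called also changed sign. For R2 against control their log2 fold changes ran from -0.19 to 0.0179 (COL12A1), -0.18 to 0.42 (COL4A6), -0.0585 to 0.51 (COL6A1), -0.22 to 0.10 (PLOD1) and, without a change of sign, -1.74 to -0.29 (COL5A1). For R1 against control they ran from -0.17 to 0.0877 (COL27A1), -0.59 to 0.047 (LOXL3), -0.64 to 0.18 (P4HA1), -0.0731 to 0.71 (P4HA2) and -0.47 to 0.0454 (P4HB). For R2 against R1 they ran from -0.007 to 0.28 (COL12A1), -0.19 to 0.16 (COL15A1), -0.25 to 0.0105 (COL27A1), -0.85 to 0.60 (COL5A1), -0.55 to 0.0876 (COL6A1), -0.38 to 0.0583 (COL6A2), -0.035 to 0.50 (LOX), -0.61 to 0.0033 (PLOD2) and -0.10 to 0.0563 (SERPINH1). Depth limits COL24A1 outside R2, COL9A2 in R2 and COL6A3 in control.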
